A study of Mus musculus with 18 samples.

Results

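Voltage-gated sodium and calcium channels, the hyperpolarization-activated HCN channels and the TRPC, TRPM and TRPV cation channels were followed in the left ventricle of mice from 10 min to 72 h after acute myocardial infarction (AMI). The genes were taken by their symbols: those beginning with Scn or with Trpc, Trpm or Trpv before a digit, those beginning with Cacn, and those of Hcn with a digit. This gave 67 of the 24419 gene symbols measured, namely 14 sodium channel, 26 calcium channel, 4 HCN and 23 TRP symbols. Of the TRP symbols, 2 match by name and are not channels: Trpc4ap encodes a protein that binds TRPC4, and Trpc5os is named for its place opposite Trpc5. Of the 67, 27 reached 1 FPKM (fragments mapped to a gene, scaled by its transcript length and by the library's mapped fragments) in at least 1 mouse and were tested: 5 sodium channel, 11 calcium channel, 3 HCN and 8 TRP genes.

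All 18 animals were male C57BL/6 mice, 8 weeks old, anaesthetised with sodium pentobarbital. In 15 of them the proximal left anterior descending coronary artery was ligated, and infarcted left ventricle was taken from 3 mice each at 10 min, 1 h, 6 h, 24 h and 72 h, while 3 sham mice, labelled control, gave the reference. The same 3 sham mice served for all times, and their labels give no time. Effects of ligation and of time since surgery therefore cannot be told apart. No transgene or drug treatment was part of these groups. Polyadenylated RNA of each mouse was sequenced as 1 library, so each value below is 1 mouse.

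In the ventricular myocyte the sodium channel carries the upstroke of the action potential, the L-type calcium channel lets in the calcium that starts contraction, and HCN channels carry the depolarising current known from pacemaker cells. Each sodium or calcium channel is built around a pore-forming alpha subunit whose trafficking and gating are set by accessory subunits, the beta subunits for sodium channels and the alpha2-delta, beta and gamma subunits for calcium channels. TRP channels are a broader group of cation channels found in many cell types, leukocytes, fibroblasts and endothelium included, and respond to receptors, stretch, heat or oxidants.

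Of the 20 tested members with a promoter in the RefSeq table (GRCm38.p6), 5 had a transcription start that coincided with the gene start in GENCODE M21. Among those named here and called at 72 h without overlap, the 2 that moved furthest up and furthest down have their promoters shown. Each is the 250 bases before the start, 5′ to 3′ on the gene's strand, at chr11:62574236-62574485 (plus strand) for Trpv2 and chr10:79716384-79716633 (plus strand) for Hcn2. Capitals mark the letters of any of 7 motifs searched on both strands: TGANTCA for AP-1, GAGGAAGT for ETS factors of the PU.1 type, AGATAA for GATA factors, CATTCC for TEAD factors, CAGCTG for the E-box, TATAAA for the TATA box and GGGCGG for the GC box.
Trpv2: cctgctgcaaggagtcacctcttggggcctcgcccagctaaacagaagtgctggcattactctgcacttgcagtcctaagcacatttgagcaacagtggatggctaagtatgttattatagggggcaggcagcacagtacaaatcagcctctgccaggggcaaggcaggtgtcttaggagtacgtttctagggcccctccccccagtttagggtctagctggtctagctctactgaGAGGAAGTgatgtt
Hcn2: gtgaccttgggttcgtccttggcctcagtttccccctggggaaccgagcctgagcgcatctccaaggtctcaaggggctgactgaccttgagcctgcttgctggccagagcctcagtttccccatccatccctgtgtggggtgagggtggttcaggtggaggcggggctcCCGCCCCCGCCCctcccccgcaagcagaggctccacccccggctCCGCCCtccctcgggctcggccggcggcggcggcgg

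The Trpv2 stretch held 1 match, GAGGAAGT beginning 14 bases before the start, and the Hcn2 stretch held 3 GC boxes on the opposite strand, beginning 80, 74 and 36 bases before it. Trpv2 has 3 starts in the RefSeq table and Hcn2 has 1, and only the first start listed for a gene was searched. GAGGAAGT stood in 2.44% of the 27025 promoters of this length and in 1 of the 20 members, Trpv2. The GC box stood in 32.9% of all promoters and in 11 of the 20 members, of which 4 were among the 7 that were higher and 5 among the 9 that were lower at 72 h. TGANTCA was found in 0 of the 20 and in 6.87% of all promoters. These matches describe letters in the window and show no binding.

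The libraries differed in depth and in tissue makeup. Relative depth, read from the low values of shared genes, ran from 0.813 to 1.32 of the first sham mouse, with sham at 0.977 to 1.11 and the 72 h mice the deepest as a group at 1.24 to 1.32, and its part in the results was not tested. The first 6 h mouse stood apart by atrial transcripts: Myl7 was 18.7, Sln 12.5 and Myl4 63.0 FPKM, against at most 0.49, 0.132 and 2.89 in the 17 other mice, so 6 h results are also given without it. The summed level of 11 cardiomyocyte markers was 52199 to 55732 FPKM in sham and 18231 to 22874 at 72 h, while 6 macrophage and monocyte markers went from 190 to 215 in sham to 3419 to 4530 and 6 fibroblast markers from 228 to 256 to 3649 to 4780. In whole tissue, fewer cells of a type and less RNA per cell cannot be told apart.

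Changes were tested as log2(FPKM + 1) with limma across all tested genes and called at a Benjamini-Hochberg adjusted p under 0.05. Fold changes on that scale understate the change of genes near or under 1 FPKM. At 10 min, 0 of the 27 channel genes were called, where 0.346% of all genes tested were (0.248% higher and 0.0978% lower), and 3 had an unadjusted p under 0.05. At 1 h the count was again 0, against 0.722% of all genes (0.669% higher and 0.0526% lower), with 3 at an unadjusted p under 0.05. The largest of these early differences was Hcn4 at 1 h, where all 3 mice lay above the sham mice (mean 26.3 ± 2.17 against 19.3 ± 3.62 FPKM, SD, n = 3) with an adjusted p of 0.257 by limma.

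From 6 h channel genes were called, more of them lower than higher on the deposited scale. The share called was 37%, 44.4% and 81.5% at 6, 24 and 72 h, beside 28.3%, 37.6% and 77.3% of all genes. At 6 h, 1 was higher and 9 were lower of 27, against 11.6% and 16.8% of all genes (28.3% in either direction). At 24 h, 4 were higher and 8 lower, against 26.2% and 11.4% (37.6% in either direction). With levels set relative to cardiomyocyte markers, 6 h gave 4 higher and 4 lower (17.3% and 5.5% of all genes). In that scaling 24 h gave 15 higher and 2 lower (78.7% and 0.728% of all genes). At 72 h, 8 were higher and 14 lower, against 53.1% and 24.2% (77.3%), and 25 were higher and 0 lower when levels were set relative to cardiomyocyte markers, a scaling under which 97% of all genes were higher. The median log2 fold change of the 27 was -0.27, -0.11 and -0.40 at 6, 24 and 72 h, beside -0.08, 0.13 and 0.29 for all genes. Of the 27, 4 passed the 1 FPKM minimum only through certain AMI groups, Cacna1d, Cacng6 and Trpm2 among them, and the other 23 gave 6 higher and 13 lower at 72 h.

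These counts depended on single mice at 6 h and 24 h. At 6 h, leaving out the first, the second or the third sham mouse gave 1 higher and 3, 3 or 4 lower, leaving out the first or second 6 h mouse gave 3 higher and 6 lower in each case, and leaving out the third 6 h mouse gave 2 and 9. At 24 h, leaving out the first, the second or the third sham mouse gave 2, 1 or 2 higher and 5, 5 or 4 lower. At 72 h every such count was 7 or 8 higher and 14 lower. At 72 h the 10307 genes called were 68.7% higher calls, a split that became 52.1% under median-of-ratios scaling, where the channel genes gave 7 higher and 16 lower, and 43.5% under quantile normalization, where they gave 6 and 20. The median of all genes at 72 h was 0.29 as deposited, 0.0309 under the first of these scalings and -0.10 under the other, so a change near 0.3 at 72 h lies at the all-gene median.

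**Figure D1:**
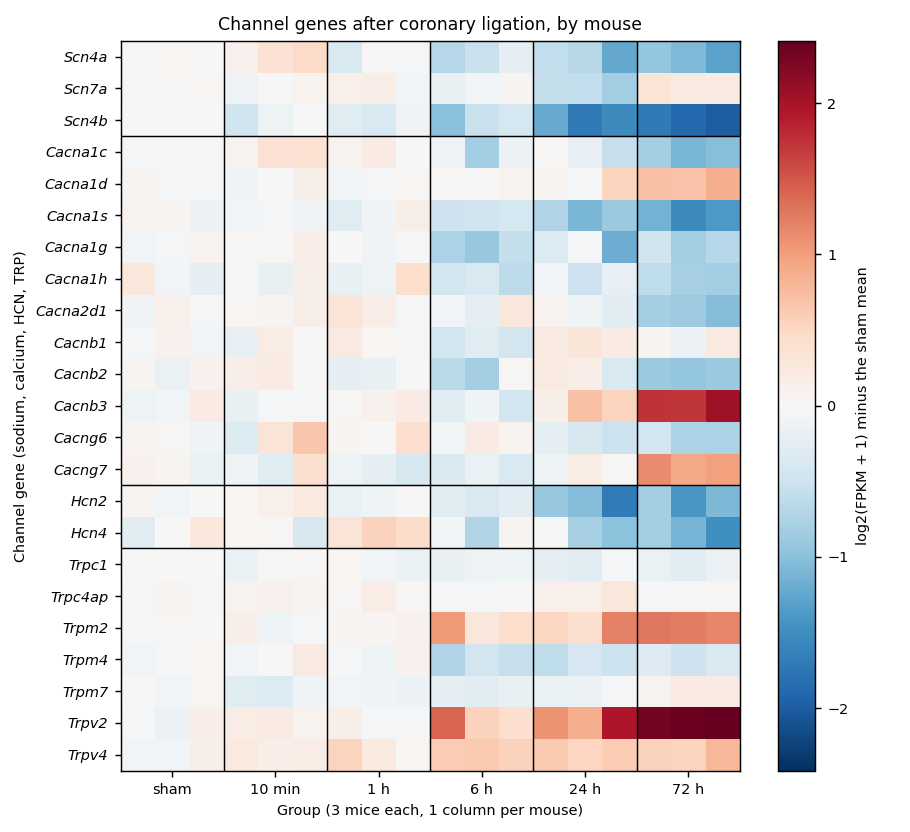
Each cell is 1 mouse and 1 of 23 tested channel genes, coloured by log2(FPKM + 1) minus the sham mean, with mice in columns by group and genes in rows by family. Most rows stay pale through 1 h, and at 72 h 7 of these rows are called higher and 12 lower, except relative to cardiomyocyte markers, where 21 are higher and 0 lower.

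Among the sodium channel alpha subunits, Scn4a, the skeletal muscle subunit Nav1.4, was 2.76, 3.02 and 2.83 FPKM in sham, 1.40, 1.65 and 2.27 at 6 h, 1.58, 1.43 and 0.649 by 24 h, and 1.02, 0.855 and 0.582 by 72 h. It was lower at all 3 times without overlap, by 0.49 ± 0.13, 0.83 ± 0.18 and 1.10 ± 0.11 on the log2 scale, and limma's adjusted p was 0.0285, 0.0143 and 1.93e-05. Relative to cardiomyocyte markers the 72 h difference was 0.54. The summed level of 7 skeletal muscle markers went the other way, from 1.21 to 2.21 FPKM in sham to 2.13 to 5.69 at 24 h and 10.3 to 18.0 at 72 h, mostly through the fast troponin gene Tnnt3 (0.439 in sham and 12.4 at 72 h, log2 change 3.18, called higher), while the fast myosin Myh4 was listed at 0 in every mouse. Their part in the result was not tested. The call at 6 h was lost on leaving out the first or second 6 h mouse or any sham mouse and the call at 24 h on leaving out any sham mouse, with adjusted p up to 0.0954 and 0.0585.

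Scn7a, a sodium channel of low voltage sensitivity known from sodium sensing and from glia, fell and then rose. It stood at 3.02, 3.06 and 3.21 FPKM in sham, fell to 1.74, 1.73 and 1.29 at 24 h, and reached 4.14, 3.75 and 3.70 at 72 h. The groups did not overlap, and the log2 fold change was -0.67 ± 0.11 at 24 h (adjusted p = 0.00721, limma) and 0.25 ± 0.078 at 72 h (adjusted p = 0.0182). The value at 72 h lay at the all-gene median. Median-of-ratios scaling gave 0.00 and quantile normalization -0.28, and the call was lost on leaving out the first 72 h mouse or the first or second sham mouse. The gain from 24 h to 72 h was 0.91 ± 0.12 with adjusted p = 0.000959. Summed nerve and glia markers, 6 genes, were 5.87 to 6.71 FPKM in sham and 3.25 to 4.02 at 72 h, and their part in this result was not tested.

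Scn4b, which encodes the beta4 subunit of the sodium channel (ENSMUSG00000046480.6, chromosome 9, 45138395 to 45154152, plus strand), was 5.78, 5.66 and 5.65 FPKM in sham, 2.33, 3.64 and 4.02 at 6 h, 1.87, 1.06 and 1.32 by 24 h, and 1.06, 0.826 and 0.677 by 72 h. At 72 h it stood at 15.0% of its sham mean. It fell by 0.65 ± 0.16 on the log2 scale at 6 h, by 1.49 ± 0.14 at 24 h and by 1.86 ± 0.095 at 72 h, with limma adjusted p of 0.0225, 0.0018 and 4.42e-07. Its 6 h call held without the first 6 h mouse (-0.47, adjusted p = 0.0153) and was lost on leaving out any 1 sham mouse, with an adjusted p up to 0.0779. Relative to cardiomyocyte markers the 72 h difference was -0.22 and not called.

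**Figure D2:**
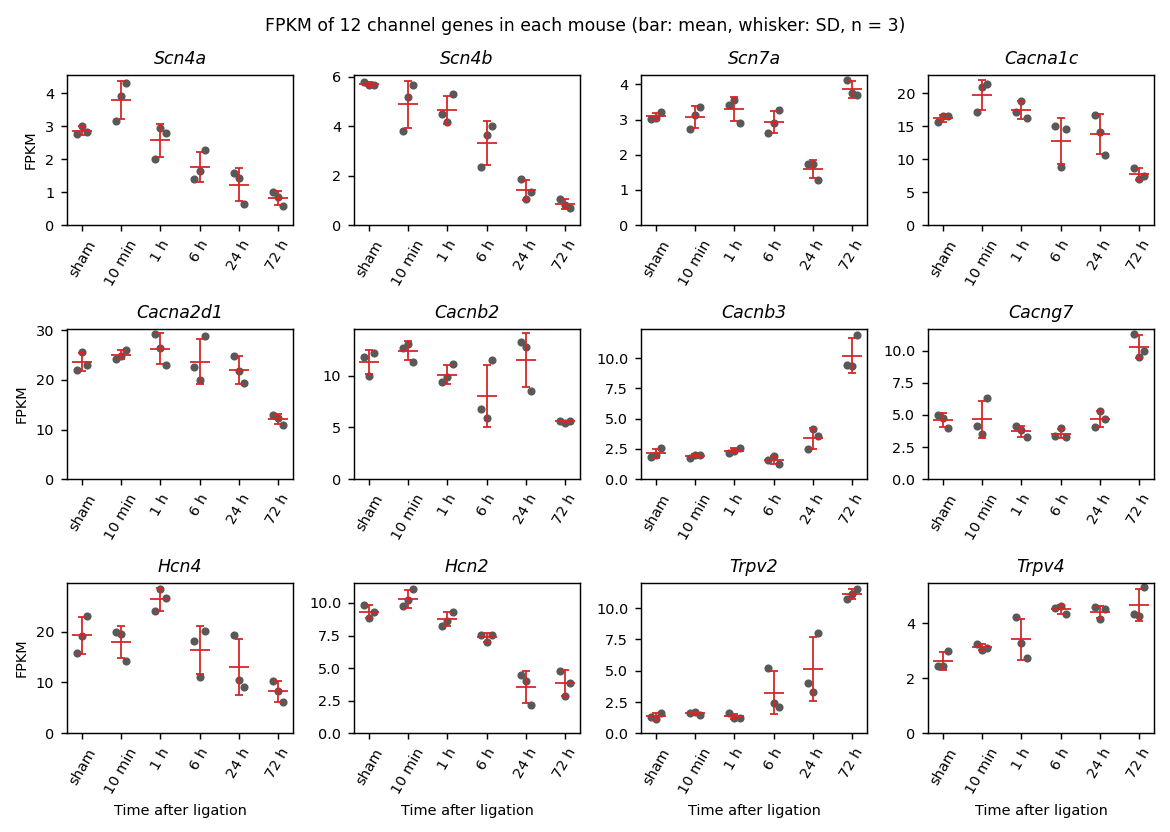
FPKM of 12 channel genes in each mouse (points) with the mean and SD of 3 mice per group, over time after ligation. Scn4b falls from 6 h on, Cacna1c, Cacna2d1 and Cacnb2 are lowest at 72 h, and Cacnb3, Cacng7 and Trpv2 are highest at 72 h, while relative to cardiomyocyte markers Cacna1c, Cacna2d1 and Cacnb2 are higher, not lower, at 72 h.

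The 3 main components of the myocyte's L-type calcium channel were called lower at 72 h and at no earlier time. Cacna1c, the pore subunit Cav1.2 (ENSMUSG00000051331.15, chromosome 6, 118587240 to 119196418, minus strand), was 15.7, 16.6 and 16.5 FPKM in sham, 15.0, 8.76 and 14.6 at 6 h, 16.7, 14.1 and 10.7 by 24 h, and 8.73, 7.03 and 7.51 by 72 h. Cacna2d1, the alpha2-delta1 subunit (chromosome 5, 15934691 to 16374511, plus strand), was 22.0, 25.7 and 23.1 in sham and 12.9, 12.4 and 10.9 at 72 h. Cacnb2, the main cardiac beta subunit (chromosome 2, 14603088 to 14987908, plus strand), was 11.8, 10.0 and 12.2 in sham and 5.64, 5.48 and 5.62 at 72 h. For each, the 72 h mice lay below all sham mice.

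The 3 subunits fell by like amounts, leaving 47.8% of the sham mean for Cacna1c, 51.2% for Cacna2d1 and 49.2% for Cacnb2. On the log2 scale the changes were -0.98 ± 0.085, -0.91 ± 0.087 and -0.90 ± 0.085, and limma's adjusted p was 1.00e-05, 1.75e-05 and 1.60e-05. Relative to cardiomyocyte markers all 3 were higher, by 0.66, 0.73 and 0.74. That scaling used the mean of the markers and lifted the all-gene median by 1.64, while the median change of the markers at 72 h was -1.88. At 6 h and 24 h none of the 3 was called, and the mice were spread widely: Cacnb2 at 6 h was 6.82, 5.93 and 11.5 FPKM, and at 24 h 13.3, 12.8 and 8.55.

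Cacnb3, a beta subunit gene better known from brain, smooth muscle and lymphocytes (ENSMUSG00000003352.14, chromosome 15, 98630840 to 98644529, plus strand), had the largest rise among the calcium channel genes. It was 1.86, 1.97 and 2.59 FPKM in sham, 1.60, 1.91 and 1.29 at 6 h, 2.46, 4.12 and 3.56 by 24 h, and 9.43, 9.34 and 11.9 by 72 h. The 72 h mean was 4.78 times the sham mean, a log2 change of 1.84 ± 0.12 with adjusted p = 2.04e-06 by limma. At 24 h it was 0.47 ± 0.17 with adjusted p = 0.0688, and the gain from 24 h to 72 h was 1.37 ± 0.17 with adjusted p = 0.000865.

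Shares within a subunit class do not depend on the scaling of a library. They are shares in whole tissue, and the part of tissue makeup in them was not tested. Within the calcium channel beta subunit class, Cacnb2 held 71.8% ± 2.68 of the summed FPKM in sham and 31.0% ± 2.7 at 72 h, while Cacnb3 went from 13.5% ± 1.79 to 56.4% ± 2.47 (SD, n = 3; exact permutation p = 0.1 for each, the smallest possible). The class sum itself was 15.8 ± 1.21 FPKM in sham and 18.1 ± 1.80 at 72 h. Cacnb1, the skeletal muscle beta subunit, held 12.5% ± 2.25 in sham, and its mean at 72 h was 11.4%. It was lower at 6 h (1.24 ± 0.139 against 1.96 ± 0.200 FPKM, log2 change -0.40 ± 0.098, adjusted p = 0.0228 by limma) and not called at 24 h or 72 h. That 6 h call was lost on leaving out any sham mouse, with adjusted p up to 0.0856. With quantile normalization, which lowers most genes at 72 h, Cacnb1 was -0.51 there.

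**Figure D3:**
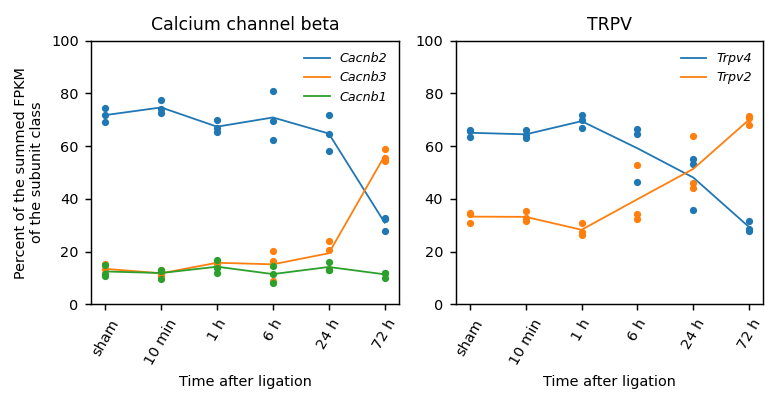
Percent of the summed FPKM of a subunit class held by each named gene, with points for single mice and lines through the means of 3 mice, over time after ligation. Cacnb3 overtakes Cacnb2 between 24 h and 72 h, ending at 56.4% against 31.0%, and Trpv2 overtakes Trpv4, ending at 70.1% against 29.3%. The shares are those of whole tissue, and the part of tissue makeup in them was not tested.

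The other calcium channel pore subunits were low. Cacna1s, the skeletal muscle L-type subunit Cav1.1, was 3.07, 3.05 and 2.49 FPKM in sham, 1.73, 1.78 and 1.86 at 6 h, 1.33, 0.808 and 1.07 by 24 h, and 0.744, 0.337 and 0.482 by 72 h. It was lower at each of these times without overlap, with log2 changes of -0.47 ± 0.10, -0.91 ± 0.13 and -1.35 ± 0.12 and limma adjusted p of 0.0148, 0.0054 and 1.13e-05. Its 6 h call was lost on leaving out the first or second sham mouse (adjusted p up to 0.0674). Relative to cardiomyocyte markers its 72 h difference was 0.29. An antisense gene, Gm37759, covers 20.0% of its exon length, and the library kit does not mark strand.

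Both of the T-type subunits tested, which open at low voltage, were lower at 6 h and at 72 h, though relative to cardiomyocyte markers they were 0.98 and 0.89 higher at 72 h. Cacna1g (Cav3.1) had a mean of 3.68 ± 0.277 FPKM in sham, 1.79 ± 0.325 at 6 h and 1.98 ± 0.348 at 72 h, with limma adjusted p of 0.00477 and 0.000429. At 24 h its 3 mice were at 2.7, 3.56 and 1.03 and no call was made. Cacna1h (Cav3.2) was 2.51 ± 0.632 in sham, 1.49 ± 0.232 at 6 h and 1.07 ± 0.171 at 72 h, with adjusted p of 0.0446 and 0.000883, and its 6 h call was lost on leaving out any 1 of the 6 mice (adjusted p up to 0.127). Cacna1d, the Cav1.3 subunit of pacemaker and endocrine cells, was 0.193 to 0.284 FPKM in sham and 0.984 to 1.25 at 72 h, 4.76 times its sham mean, and passed the filter only through the 72 h mice (log2 change 0.76 ± 0.092, adjusted p = 7.95e-05, limma).

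The gamma subunits split. Cacng7, a member of the family known as regulators of AMPA receptors in brain (chromosome 7, 3332955 to 3368221, plus strand), was 4.97, 4.80 and 3.97 FPKM in sham, 4.10, 5.28 and 4.66 by 24 h, and 11.3, 9.53 and 10.0 by 72 h. It was 2.25 times the sham mean at 72 h, with a log2 change of 1.02 ± 0.098 and adjusted p = 1.88e-05 by limma. Cacng6, a gamma subunit expressed in striated muscle, was 0.6 to 0.783 FPKM in sham, 0.186 to 0.444 at 24 h, and 0.232, 0.00 and 0.00 at 72 h. It was lower by 0.38 ± 0.11 at 24 h and 0.67 ± 0.11 at 72 h on the log2 scale (adjusted p = 0.0343 and 0.000562, limma), and the 24 h call was lost on leaving out the second or the third 24 h mouse or any sham mouse (adjusted p up to 0.116).

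Of the pacemaker channels, Hcn4 (ENSMUSG00000032338.9, chromosome 9, 58823412 to 58863175, plus strand), the main isoform of the sinoatrial node, was the most abundant in this ventricular tissue. It was 15.8, 19.2 and 23.0 FPKM in sham, 24.1, 28.4 and 26.5 at 1 h, 18.1, 11.1 and 20.1 at 6 h, 19.3, 10.5 and 9.09 by 24 h, and 10.3, 8.25 and 6.22 by 72 h. Only at 72 h was it called, at 42.6% of the sham mean, with a log2 change of -1.15 ± 0.18 and adjusted p = 0.000344 by limma. Of the 6 atrial and conduction markers, the conduction factor gene Tbx3 was 6.11 FPKM in sham, 9.59 at 1 h with all mice above sham, 11.1 at 6 h and 2.97 at 72 h, where it was called lower, and Nppa went from 343 to 1793 FPKM at 72 h. The list summed to 214 to 492 FPKM in sham and 1620 to 2026 at 72 h, while Myl7 was at most 0.49 FPKM in every mouse but the first 6 h mouse. Their part in the Hcn4 result was not tested.

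Hcn2, the isoform usual in ventricle, was called lower from 6 h on. It was 9.82, 8.86 and 9.32 FPKM in sham, 7.57, 6.99 and 7.56 at 6 h, 4.51, 4.01 and 2.19 by 24 h, and 4.82, 2.89 and 3.89 by 72 h, and all mice from 6 h on lay below all sham mice. The log2 change was -0.30 ± 0.087, -1.22 ± 0.20 and -1.10 ± 0.14, with limma adjusted p of 0.0381, 0.00751 and 9.19e-05. The 6 h call was lost without the first 6 h mouse (-0.32, adjusted p = 0.0515), and also on leaving out the second 6 h mouse or any sham mouse, with adjusted p up to 0.152. Relative to cardiomyocyte markers Hcn2 and Hcn4 were higher at 72 h, by 0.54 and 0.49. At 6 h the log2 change of Hcn4 was -0.25 ± 0.22 and not called, and the timing of the 2 genes was not compared.

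Trpv2, a cation channel abundant in macrophages and also present in muscle (ENSMUSG00000018507.16, chromosome 11, 62574486 to 62600515, plus strand), had the largest rise of the 27 on the log2(FPKM + 1) scale at 72 h. It was 1.29, 1.14 and 1.64 FPKM in sham, 5.21, 2.45 and 2.12 at 6 h, 3.99, 3.32 and 8.03 by 24 h, and 10.7, 11.1 and 11.5 by 72 h. Every mouse from 6 h on was above all sham mice. The log2 change was 0.79 ± 0.25 at 6 h (adjusted p = 0.0523, limma), 1.3 ± 0.27 at 24 h (adjusted p = 0.013) and 2.37 ± 0.095 at 72 h (adjusted p = 1.20e-07), where the mean was 8.19 times that of sham. The 6 h difference was 0.48 and called (adjusted p = 0.0341) without the first 6 h mouse, and the 24 h call was lost on leaving out the first or second sham mouse (adjusted p up to 0.0553).

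Trpm2, a channel opened by oxidative stress and known from phagocytes, was highest in the same mice as Trpv2 at 6 h and at 24 h. It was 0.0740 to 0.114 FPKM in sham, 1.22, 0.316 and 0.475 at 6 h, 0.544, 0.426 and 1.53 by 24 h, and 1.65, 1.59 and 1.48 by 72 h. It was called at 24 h (log2 change 0.70 ± 0.21, adjusted p = 0.0402, limma) and at 72 h (1.23 ± 0.083, adjusted p = 2.07e-06), where its mean FPKM was 16.8 times that of sham, a larger ratio than for Trpv2, and passed the filter only through mice at 6 h or later. At 24 h the call was lost on leaving out any sham mouse (adjusted p up to 0.114), and at 6 h a call was gained without the first 6 h mouse (0.35, adjusted p = 0.0306). The mice highest in Trpv2 and Trpm2 at 6 h and at 24 h, the first and the third, were also highest in summed neutrophil markers (986 against 114 and 370 FPKM at 6 h, and 953 against 207 and 42.5 at 24 h) and in macrophage and monocyte markers (340 against 154 and 241, and 817 against 496 and 527). At 72 h neutrophil markers summed to 49.6 to 60.1 and macrophage and monocyte markers to 3419 to 4530 FPKM. The part of these cells in the results was not tested.

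Trpv4, an osmotically and mechanically gated channel of endothelium, fibroblasts and muscle, rose early and stayed level. It was 2.45, 2.45 and 3.0 FPKM in sham, 4.57, 4.62 and 4.33 at 6 h, 4.60, 4.17 and 4.51 by 24 h, and 4.35, 4.29 and 5.33 by 72 h. It was the 1 channel gene called higher at 6 h, with log2 changes of 0.60 ± 0.10, 0.58 ± 0.11 and 0.64 ± 0.10 and limma adjusted p of 0.00634, 0.0093 and 0.000509, and the 6 h call held without the first 6 h mouse (0.60, adjusted p = 0.0127). With quantile normalization the 72 h difference was 0.12 and not called. Within the TRPV class Trpv4 held 65.1% ± 1.41 of the summed FPKM in sham and 29.3% ± 1.94 at 72 h, and Trpv2 33.3% ± 2.15 and 70.1% ± 1.85 (SD, n = 3; exact permutation p = 0.1, the smallest possible).

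Trpm4, a calcium-activated channel that passes monovalent cations, was lower from 6 h on, though relative to cardiomyocyte markers it was 1.24 higher at 72 h. It was 4.40 ± 0.189 FPKM in sham, 2.64 ± 0.352 at 6 h, 2.77 ± 0.267 at 24 h and 3.1 ± 0.281 at 72 h, with limma adjusted p of 0.00908, 0.0111 and 0.00222. Its mice did not overlap with sham at any of these times, and the 6 h call held without the first 6 h mouse (adjusted p = 0.0149). At 24 h the call was lost on leaving out the second or the third sham mouse (adjusted p up to 0.0528).

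Trpm7, a channel joined to a kinase domain, Trpc1 and the non-channel Trpc4ap were not called against sham at any time. Trpm7 was 5.88, 5.53 and 6.10 FPKM in sham, 4.77, 4.70 and 5.06 at 6 h and 6.26, 6.88 and 6.79 at 72 h. Trpc4ap, at 34.0, 36.5 and 33.9 in sham and 33.7, 35.3 and 35.6 at 72 h, had the highest sham mean of the 27. Trpc1 was 1.31 ± 0.0327 in sham and 1.03 ± 0.0953 at 72 h, with adjusted p = 0.0625 by limma. Other scalings gave calls at 72 h. Median-of-ratios scaling called Trpc1 (-0.35) and Trpc4ap (-0.31) lower. Quantile normalization called Trpc1 (-0.66), Trpc4ap (-0.26) and Trpm7 (-0.31) lower. Relative to cardiomyocyte markers Trpc1 (1.45), Trpc4ap (1.64) and Trpm7 (1.80) were called higher.

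**Figure D4:**
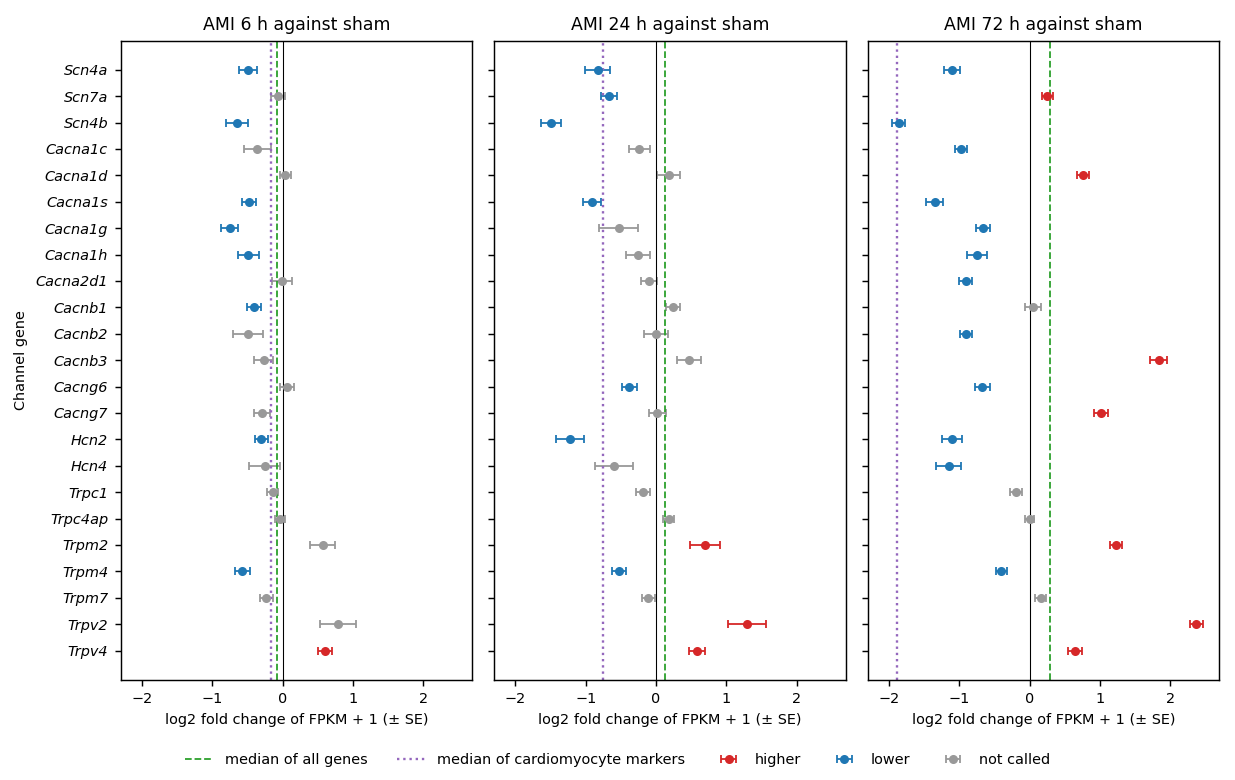
Log2 fold change of FPKM + 1 with its SE for 23 of the tested genes at 6 h, 24 h and 72 h against sham, red for called higher, blue for called lower and grey for not called, with lines at the median of all genes and of 11 cardiomyocyte markers. At 72 h the falls lie between the all-gene median of 0.29 and the cardiomyocyte marker median of -1.88. Relative to the mean of those markers, a scaling that lifted the all-gene median by 1.64, 21 of these genes are higher and 0 lower.

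Fewer channel genes were called between later times than for 72 h against sham. From 6 h to 24 h, 2 channel genes were higher, Cacnb1 and Cacnb3, and 3 lower, Hcn2, Scn4b and Scn7a, where 12.5% and 1.94% of all genes were (14.4% in either direction). Each of these 5 lost its call on leaving out any 1 of the 6 h mice or the second 24 h mouse, and the counts ran from 0 to 2 higher and 0 to 5 lower. From 24 h to 72 h, 6 were higher and 6 lower, against 29.7% and 13.5% of all genes (43.2%). The 23 members with a sham mean of at least 1 FPKM gave 5 higher and 6 lower, without Cacna1d, which passed the filter only through the 72 h mice. Cacna1d, Cacnb3, Cacng7, Scn7a and Trpv2 were among the higher ones, and Cacna1c, Cacna1h, Cacna1s, Cacna2d1 and Cacnb2 among the lower ones. Leaving out 1 mouse lost calls for Cacna1d, Cacna1h, Cacna1s and, without the first 24 h mouse, Trpv2 (adjusted p up to 0.143), and gave 4 to 8 higher and 4 to 9 lower.

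Genes that act on these channels were read from a list of 26 binding partners and regulators, of which 19 were tested. At 6 h 2 rose and 4 fell, by 24 h 3 rose and 4 fell, and by 72 h 4 rose and 9 fell. These made up 31.6%, 36.8% and 68.4% of the 19, beside 28.3%, 37.6% and 77.3% of all genes called at the same times. Rrad, a small GTPase that restrains L-type channels, was 138 ± 17 FPKM in sham and 367 ± 56.1 at 6 h (log2 change 1.40 ± 0.13, adjusted p = 0.000902, limma). Gem, of the same GTPase family, was higher at 1 h (11 ± 1.33 against 4.55 ± 1.37 FPKM, log2 change 1.14 ± 0.18, adjusted p = 0.0401) and at 72 h. Akap5, which anchors kinases near the channel, was lower at all 3 later times, by 1.39 ± 0.091 on the log2 scale at 6 h (adjusted p = 3.00e-04).

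At 72 h 3 partners of the sodium channel were lower: Fgf13 went from 14.9 ± 0.242 to 4.49 ± 0.727 FPKM (log2 change -1.54 ± 0.10), Rangrf from 39.0 ± 0.318 to 17 ± 3.8 (-1.17 ± 0.13) and the membrane anchor Ank2 from 92.1 ± 3.0 to 39.4 ± 1.19 (-1.21 ± 0.060). Scaling to cardiomyocyte markers lifted the all-gene median at 72 h by 1.64, more than any of these 3 falls. The values of these 3 genes under that scaling are not given. Calm2 was higher by 1.51 ± 0.062 and Calm3 by 0.72 ± 0.069, both encoding calmodulin, the calcium sensor of these channels. The adjusted p of these 5 ranged from 1.40e-07 to 4.33e-05 by limma.

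A second list held 26 other cation channels and store-operated calcium entry genes. At 6 h 2 of 17 tested rose and 6 fell, by 24 h 5 of 17 rose and 3 fell, and by 72 h 15 of 18 rose and 1 fell, with a median log2 change of 0.53 at 72 h beside 0.29 for all genes. The share called was 47.1%, 47.1% and 88.9%, beside 28.3%, 37.6% and 77.3% of all genes, and at 72 h 53.1% of all genes were higher and 24.2% lower. The mechanically gated Piezo2 went from 0.739 ± 0.0754 FPKM in sham to 0.226 ± 0.185 at 6 h and 19.5 ± 4.42 at 72 h (log2 change 3.54 ± 0.14 at 72 h, adjusted p = 1.08e-07, limma). Piezo1 was 18.4 ± 1.07 in sham and 39.7 ± 5.86 at 72 h. The ATP-gated P2rx4 and P2rx7, the endolysosomal Tpcn2 and Mcoln2 and the store-operated Orai2 rose by 2.08, 2.09, 2.46, 1.27 and 2.21 on the log2 scale at 72 h. Piezo2 and Mcoln2 (0.0137 FPKM in sham) reached 1 FPKM in no sham mouse and entered the test through mice after ligation. No count of this list without such genes was made. The number tested differs between times because genes without variation among the 6 mice were dropped.

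The remaining 40 of the 67 genes never reached 1 FPKM. Of these, 5 were listed at 0 in every mouse (Cacng3, Scn9a, Trpc2, Trpc5 and Trpm8), 16 more stayed under 0.1 FPKM, and 19 had their highest value between 0.1 and 1. Trpc2 shares all of its exon length with 2 other genes. A fit with no minimum called 6 of the 40 higher and 3 lower at 72 h, where it called 42.2% and 18.2% of all 18755 genes. Named after their values were seen, the lower ones were Cacna2d2, Cacnb4 and Scn3a and the higher ones Cacna1f, Cacng1, Cacng8, Scn2a1, Trpc6 and Trpm6. Cacng8 was listed at 0 in all sham mice and was 0.219 to 0.456 FPKM at 72 h, and Trpm6, a magnesium channel related to Trpm7, was 0.00 to 0.126 in sham and 0.469 to 0.788 at 72 h. Cacna1a was called lower, and Cacng1 higher, at 6 h and 24 h.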

How the data were processed

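Per the labels and the study's methods, polyadenylated RNA was made into libraries with a NEBNext Ultra kit, which does not mark strand, and sequenced as paired reads. The authors trimmed reads with cutadapt 1.18, aligned them to mm10 with HISAT2 2.1.0 and used StringTie 1.3.4d for the deposited FPKM per gene symbol (the processing notes also name Cufflinks and Cuffdiff). The annotation is not given in the sources used here. Replicates were not pooled, and the values hold no read counts, so the depth is unknown beyond the relative depth read from FPKM under 0.3. In the table header, 4 of the 18 column names differ from the sample titles by 1 letter and were matched by the rest of the name.

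The 13333 of 24419 genes that reached 1 FPKM in any mouse were tested as log2(FPKM + 1) in limma 3.58.1 (R 4.3.3) with a variance trend, on the 6 mice of each of 7 comparisons, 5 times against sham, 24 h against 6 h and 72 h against 24 h, with p-values adjusted by Benjamini-Hochberg across every gene of the fit. Genes without variation among the 6 mice were dropped. In the text, values are given per mouse for members with a sham mean of at least 5 FPKM or, at any time, an adjusted p under 0.05, no overlap with sham and a log2 change of at least 1. Scn7a, Trpv4, Cacna1g at 24 h and Cacng6 at 72 h fall outside that rule and are given per mouse too. Other tested members may be named, and genes of the partner and other-channel lists were named where called with a log2 change of at least 1 at any time. Of the tested members, 4 enter the counts and are not reported here by name. Members, lists and markers were chosen with earlier results of these data known. The script was tested on simulated data with log2 changes of 1 set only into genes above about 5 FPKM in sham. Recovery of smaller changes or of lower genes was not tested. Coordinates are those of GENCODE M21 on GRCm38 (mm10). RefSeq promoters were taken for 20 of 27 members. Alternatives were other pseudocounts, filters, scalings, a joint fit of all 18 mice, a replicate block, no variance trend and leaving out each mouse.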

Additional observations from a re-analysis of the deposited data

Results flagged for a closer look

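On the deposited scale the effect on Scn7a differed between times: it was lower than sham at 24 h and higher at 72 h. The difference between 72 h and 24 h was itself called by limma (log2 change 0.91, adjusted p = 0.000959). The 72 h change against sham, 0.25, lay at the all-gene median of 0.29. It was 0.00 under median-of-ratios scaling and -0.28 under quantile normalization. Its call was lost on leaving out the first 72 h mouse or the first or second sham mouse. Groups held 3 mice each, so a single mouse far from its group was not tested for.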

How the results depend on the processing

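Depth could not be tested beyond its relative range, and 3 mice a group limits every call. Scaling to cardiomyocyte markers, which lifted the median log2 change of all genes at 72 h by 1.64, to 1.93, changed most. It gave 4 higher and 4 lower channel genes at 6 h, 15 and 2 for 24 h, 25 and 0 for 72 h, 11 and 0 from 6 h to 24 h, and 19 and 0 from 24 h to 72 h. Of all genes it made 17.3% higher and 5.5% lower at 6 h, 78.7% and 0.728% by 24 h, 97% and 0.345% by 72 h, 61.6% and 0.413% from 6 h to 24 h, and 83.5% and 0.39% from 24 h to 72 h. Under it these log2 changes turned positive: at 24 h Cacna1c 0.45, Cacna2d1 0.58, Cacng6 0.30, Scn7a 0.02, Trpm4 0.17 and Trpm7 0.57. At 72 h they were Cacna1c 0.66, Cacna1g 0.98, Cacna1h 0.89, Cacna1s 0.29, Cacna2d1 0.73, Cacnb2 0.74, Cacng6 0.97, Hcn2 0.54, Hcn4 0.49, Scn4a 0.54, Trpc1 1.45 and Trpm4 1.24. From 24 h to 72 h they were Cacna1c 0.21, Cacna1g 0.82, Cacna1h 0.45, Cacna1s 0.51, Cacna2d1 0.15, Cacnb1 0.77, Cacnb2 0.05, Cacng6 0.67, Scn4a 0.69, Scn4b 0.58, Trpc1 0.95 and Trpc4ap 0.78. At 72 h quantile normalization turned Cacnb1 to -0.51, Scn7a to -0.28, Trpc4ap to -0.26 and Trpm7 to -0.31, and median-of-ratios scaling turned Scn7a to 0.00 and Trpc4ap to -0.31. A direction was counted as turned only where the change was called in the main fit or under the altered setting. By that count 0 directions reversed under the other settings. Under median-of-ratios scaling Cacnb1 (-0.16) and Trpm7 (-0.11) also changed sign at 72 h, called in neither fit.

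The 1 gene higher at 6 h became 3 with a pseudocount of 0.1, 2 with a mean FPKM of at least 1, 2 under median-of-ratios scaling, 3 under quantile normalization and 4 with all 18 mice in one fit, which also gave 7 higher for 24 h against sham and 5 higher for 24 h against 6 h. In the latter comparison the 2 higher became 1 with no filter, 0 under median-of-ratios scaling and 0 under quantile normalization, and the 3 lower became 0 with no filter. From 24 h to 72 h quantile normalization gave 12 lower. The cause was not tested. At 6 h the higher calls among all genes were 40.9% of calls, and 54.8% with median-of-ratios scaling. At 24 h they were 69.8%, and 50.3% under median-of-ratios scaling or 45.1% under quantile normalization. Without 1 mouse at a time, the channel genes gave 0 higher and 0 lower at 10 min and 1 h, 1 to 3 higher and 3 to 9 lower at 6 h, 1 to 5 and 4 to 9 by 24 h, 7 to 8 and 14 by 72 h, 0 to 2 and 0 to 5 from 6 h to 24 h, and 4 to 8 and 4 to 9 from 24 h to 72 h.

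Replicate numbers showed no steady pairing of the mice, with correlations between same-numbered mice from -0.327 to 0.415. Only for 72 h against sham were all 3 above 0, and there the highest was 0.0216. A replicate block gave 1 higher and 8 lower at 6 h, 4 and 6 by 24 h, 8 and 14 by 72 h, 0 and 0 from 6 h to 24 h, and 6 and 8 from 24 h to 72 h.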
